A study of Mus musculus with 8 samples.

Results

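Connexins are the membrane proteins of gap junctions, and 4 connexin genes known from stratified epithelia, Gja1, Gjb2, Gjb5 and Gjb6, were followed in mouse corneas. The members were the rows of the gene table with one of these symbols, and all 4 were found among 13437 genes. They encode Cx43, Cx26, Cx31.1 and Cx30. The corneas came from C57BL/6 female mice of 6 to 8 weeks with no stated mutation or transgene. Treated animals were given 5 µl of 0.2% BAC, an agent that the labels do not spell out, in each eye 2 times a day over 7 days, while PBS was given in each eye of the controls. Each group had 4 corneal libraries. How many animals or eyes went into one library is not stated, so the p-values below measure the spread among these libraries, which may be technical.

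Connexins assemble into hemichannels, and hemichannels of neighbouring cells dock to form channels that pass ions and small molecules from cell to cell. In stratified epithelia several connexins are made at once, in partly different layers. Cx43 is the most widespread of them and is found in corneal epithelium, in keratocytes and in the corneal endothelium, whereas Cx26 and Cx30 are known from epidermis and from the cochlea, where human mutations cause deafness. Cx31.1 is a connexin of mouse skin and other stratified epithelia.

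The promoter windows of the 4 genes, taken from RefSeq (GRCm38.p6, 250 bases before to 50 after the RefSeq start), are shown because Gjb2 and Gjb6 lie beside each other and because Gjb5 and Gjb6 both fell. Capitals mark matches, on either strand, to the TATA box letters TATAAA, the GC box letters GGGCGG, the CACCC box letters CCACCC, the AP-1 site letters TGANTCA or the ETS site letters GGAAGTG. Gja1 lies at chr10:56377050-56377349 on the plus strand, and Gjb2 at chr14:57104653-57104952, Gjb5 at chr4:127358115-127358414 and Gjb6 at chr14:57133562-57133861 on the minus strand.
Gja1: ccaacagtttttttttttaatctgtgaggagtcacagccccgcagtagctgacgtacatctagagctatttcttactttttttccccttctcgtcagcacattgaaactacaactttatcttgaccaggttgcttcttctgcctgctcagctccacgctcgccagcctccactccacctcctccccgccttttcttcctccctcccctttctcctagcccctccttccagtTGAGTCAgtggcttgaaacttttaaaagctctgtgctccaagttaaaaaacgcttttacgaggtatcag
Gjb2: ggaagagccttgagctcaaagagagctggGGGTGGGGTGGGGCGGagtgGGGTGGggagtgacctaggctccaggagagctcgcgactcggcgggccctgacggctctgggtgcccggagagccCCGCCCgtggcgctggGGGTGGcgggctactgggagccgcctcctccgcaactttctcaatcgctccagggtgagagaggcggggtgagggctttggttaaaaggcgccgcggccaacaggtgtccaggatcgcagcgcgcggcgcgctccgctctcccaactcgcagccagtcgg
Gjb5: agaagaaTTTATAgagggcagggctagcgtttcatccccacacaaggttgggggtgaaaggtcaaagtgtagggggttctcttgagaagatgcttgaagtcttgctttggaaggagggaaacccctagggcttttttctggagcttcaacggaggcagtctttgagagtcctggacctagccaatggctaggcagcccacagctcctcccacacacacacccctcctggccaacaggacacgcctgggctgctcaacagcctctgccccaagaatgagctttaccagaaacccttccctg
Gjb6: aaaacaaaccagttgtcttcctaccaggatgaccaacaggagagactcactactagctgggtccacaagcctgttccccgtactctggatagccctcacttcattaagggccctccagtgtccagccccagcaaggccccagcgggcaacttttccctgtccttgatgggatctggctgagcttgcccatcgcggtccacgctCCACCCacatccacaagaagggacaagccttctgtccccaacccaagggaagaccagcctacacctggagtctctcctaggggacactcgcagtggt
The Gjb2 window had a GC content of 70%, against 47.7% for Gja1, 54.3% for Gjb5, 57.3% for Gjb6 and a median of 52.7% over 32851 RefSeq promoter windows. Gjb2 held 2 matches to GGGCGG, which 35.7% of all windows hold, and 4 matches to CCACCC, which 31.5% hold. In the Gjb2 window 2 bases lie in more than one match. Gjb6 held 1 match to CCACCC, 47 bases before the start. Gja1 held 1 match to TGANTCA, 19 bases before the start, and 7.81% of all windows hold one. With N as any base, this pattern reads the same on both strands. Gjb5 held 1 match to TATAAA, which 13.6% of windows hold, 243 bases before the start and on the opposite strand. No window of the 4 held GGAAGTG, which 11% of all windows hold. These matches describe letters and not binding. The start of the main GENCODE transcript lay 30 bases after the RefSeq start for Gja1 and 17 bases before it for Gjb5. For Gjb2 and Gjb6 the starts were the same.

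Levels are in FPKM, fragment numbers divided by exon length and by library size, and read depth is unknown. Summed FPKM per library ran from 268629 to 283538, and libraries of one group correlated with Pearson's r of 0.977 to 0.986 across genes on the log2 scale. Genes were tested with limma on log2(FPKM + 1), a scale that understates the change of low genes. Changes are given as BAC minus PBS, and the median of all 12967 genes tested lay 0.19 log2 above 0. All 4 members passed the filter of a mean FPKM of 0.5 over the 8 libraries, and every member was above 1 FPKM in both groups.

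Gjb5 and Gjb6 were lower in every BAC library than in any PBS library, Gjb2 was slightly lower, and Gja1 did not differ beyond its spread. In whole corneas fewer cells of a type and less RNA per cell cannot be told apart. At an adjusted p of 0.05, 3 of the 4 members were lower with BAC and none was higher, while 22.6% of all genes tested were lower, 45.1% were higher and 67.6% were called in either direction. Values did not overlap between the groups for 2 of the 4 members, against 63.5% of all genes tested, 42.6% being higher and 20.9% lower with BAC. The directions of Gjb2, Gjb5 and Gjb6 were the same after median-of-ratios scaling, quantile normalization and rescaling to one total.

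**Figure D1:**
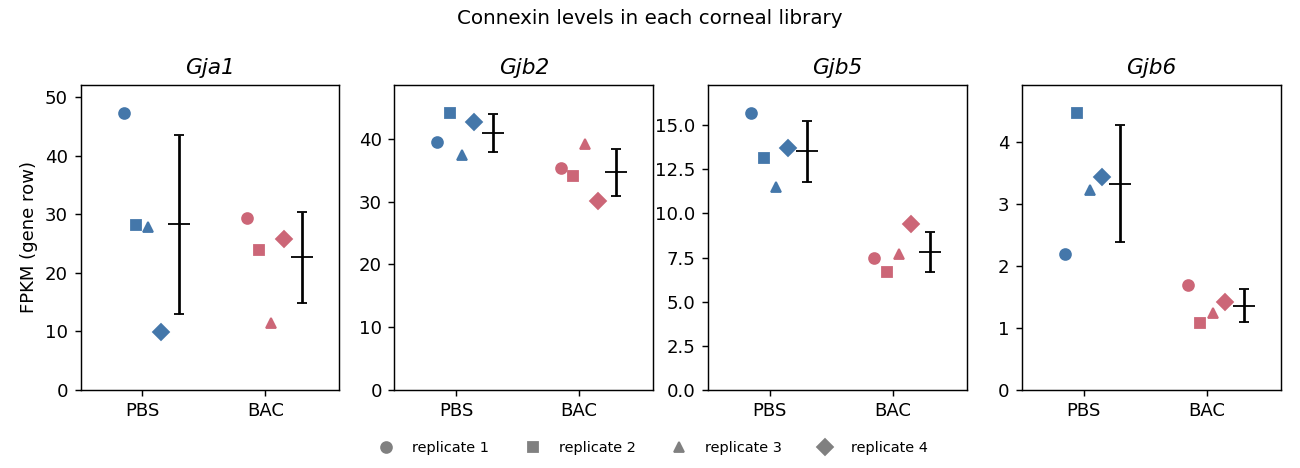
FPKM of Gja1, Gjb2, Gjb5 and Gjb6 in each of the 4 PBS (blue) and 4 BAC (red) libraries, with marker shapes for the replicate number and a black bar for the mean and SD of the group. Gjb5 and Gjb6 separate the groups completely, Gjb2 overlaps at one library of each group, and Gja1 spans 9.92 to 47.4 FPKM among the PBS libraries alone.

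Gjb5 (ENSMUSG00000042357.2, chromosome 4 from 127354809 to 127358181 in GRCm38, minus strand) was at 15.7, 13.2, 11.5 and 13.7 FPKM in PBS 1 to 4 and at 7.49, 6.69, 7.72 and 9.39 FPKM in BAC 1 to 4. The highest BAC library lay below the lowest PBS library. The means were 13.5 ± 1.74 FPKM with PBS and 7.82 ± 1.14 FPKM with BAC (SD, n = 4 each), a 1.73-fold lower level. The log2 change was -0.72 (SE 0.11, limma adjusted p = 0.000386).

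Gjb6 (ENSMUSG00000040055.9, chromosome 14 from 57123303 to 57133611, minus strand) was the scarcest member. It was at 2.19, 4.48, 3.22 and 3.44 FPKM in PBS 1 to 4 and at 1.70, 1.07, 1.24 and 1.42 FPKM in BAC 1 to 4. PBS 1, the lowest control, still lay above BAC 1, the highest treated library. The means were 3.33 ± 0.938 FPKM with PBS and 1.36 ± 0.268 FPKM with BAC (SD, n = 4 each), 2.45-fold lower. The log2 change was -0.86 (SE 0.16, limma adjusted p = 0.00104), and with a pseudocount of 0.1 it was -1.21.

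Gjb2 (ENSMUSG00000046352.7, chromosome 14 from 57098600 to 57104702, minus strand) was the highest member by gene row with BAC. It was at 39.6, 44.2, 37.4 and 42.7 FPKM in PBS 1 to 4 and at 35.4, 34.1, 39.2 and 30.1 FPKM in BAC 1 to 4. BAC 3 lay above PBS 3, and the other BAC libraries lay below every control. The means were 41.0 ± 3.05 and 34.7 ± 3.75 FPKM (SD, n = 4 each), 1.18-fold lower with BAC. The log2 change of -0.24 (SE 0.09) passed narrowly (limma adjusted p = 0.0383), and the call was lost when any library but BAC 3 or PBS 3 was left out, at limma adjusted p-values up to 0.0994. It was also lost after rescaling to one total (limma adjusted p = 0.051).

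Gja1 (ENSMUSG00000050953.10, chromosome 10 from 56377330 to 56402513, plus strand) was at 47.4, 28.2, 27.8 and 9.92 FPKM in PBS 1 to 4 and at 29.4, 23.9, 11.4 and 25.8 FPKM in BAC 1 to 4. Each group held one library far below the others, PBS 4 and BAC 3, and PBS 1 was the highest of all. The means were 28.3 ± 15.3 and 22.6 ± 7.79 FPKM (SD, n = 4 each). The log2 change was -0.20 with a 95% interval from -1.20 to 0.79 (limma adjusted p = 0.697), an interval that holds clear falls and clear rises. Without PBS 1 the change was 0.10, without BAC 3 it was 0.08, and without PBS 4 it was -0.62 (limma adjusted p = 0.122).

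The spread of Gja1 stood out among genes of its level. Its SD was 54.0% of the mean in the PBS group and 34.4% in the BAC group. Among 4585 genes with a mean of at least 10 FPKM, the median of that measure was 8.33% with PBS and 8.30% with BAC, and 98.3% of the genes in PBS and 96.5% in BAC varied less than Gja1. Gjb2 varied by 7.43% and 10.8%, and Gjb5 by 12.8% and 14.5%.

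Markers of the corneal endothelium, the single cell layer on the inner face of the cornea, differed between the same libraries. Slc4a11, a transporter of that layer, was at 30.7 FPKM in PBS 1, 16.2 in PBS 2, 7.75 in PBS 3 and 3.38 in PBS 4, the order in which Gja1 also stood. Car3, a carbonic anhydrase, was at 126, 44.4, 20.8 and 5.01 FPKM in the same libraries. In the BAC group, BAC 3 was lowest for Gja1, for Slc4a11 (2.52 FPKM against 3.68 to 7.95 FPKM in the others) and for Car3 (1.41 FPKM against 11 to 23.5 FPKM). These marker genes, and Cdh1 and Epcam below, were chosen after their values were seen.

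Over the whole list of 6 corneal endothelium markers, the summed level was 355, 224, 181 and 164 FPKM in PBS 1 to 4, and 302 to 331 FPKM in the BAC libraries, with BAC 3 the lowest. No marker of that list was at 0 in all libraries of a group. Of the 6, 2 were higher with BAC, none was lower and 4 did not pass, or 2 higher and 1 lower after quantile normalization. Among all genes tested 45.1% were higher and 22.6% lower. Lens markers stood out in 1 library, PBS 1, with a summed level of 56.3 FPKM against 3.06 to 5.46 FPKM in the other 7. Crygd, Lim2 and Mip were at 0 in all BAC libraries. Lim2 and Mip were also at 0 in PBS 2, PBS 3 and PBS 4, where Crygd was at 0.197, 0.0953 and 0 FPKM. Melanocyte markers stood out in 1 library of each group, with a summed level of 54.1 FPKM in PBS 4 against 3.07 to 5.24 FPKM in the other controls, and of 122 FPKM in BAC 4 against 11.7 to 19.1 FPKM in the other treated libraries. The epithelial cadherin gene Cdh1 was even, at 100.1 to 116 FPKM with PBS and 105 to 129 FPKM with BAC. What part of the spread of Gja1 moves with these markers was not tested.

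**Figure D2:**
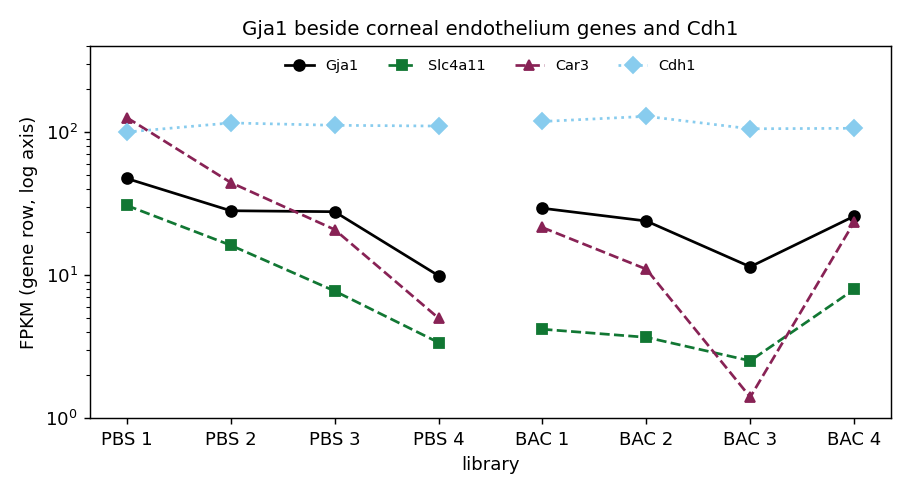
FPKM on a log axis of Gja1 (black), of the corneal endothelium genes Slc4a11 (green) and Car3 (purple) and of the epithelial gene Cdh1 (light blue) in each library; lines join libraries of one group and imply no order. Gja1, Slc4a11 and Car3 share their lowest library in each group, PBS 4 and BAC 3, while Cdh1 stays between 100.1 and 129 FPKM.

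Gja1 was also the member whose level depended most on how it is counted. A gene row of this table equals the sum of transcript FPKM times transcript length, divided by the length of all exons of the gene merged. This held within 1% for 100% of 3774 values in 477 genes with every annotated transcript listed, where a plain sum held for 9.41%. The merged exons of Gja1 span 10257 bases, because 8 transcripts are annotated, whereas its main mRNA Gja1-201 has 3071 bases. Gja1-201 was at 91.3 ± 51.5 FPKM with PBS and 72.5 ± 31.1 FPKM with BAC (SD, n = 4 each), well above the gene row. Its log2 change was -0.24 (SE 0.59, limma adjusted p = 0.801 over 23349 transcripts, of which 34.6% were called).

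The second listed isoform, Gja1-206, was at 4.91 and 5.31 FPKM in PBS 1 and PBS 4 and at 10.2 and 0.50 FPKM in BAC 3 and BAC 4, and was listed at 0 in the other 4 libraries. The libraries with the 2 lowest levels of Gja1-201, PBS 4 at 26.7 FPKM and BAC 3 at 27.3 FPKM, held the 2 highest levels of Gja1-206. The division of reads between overlapping isoforms is an estimate.

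Gjb2 and Gjb5 have 1 annotated transcript each, so gene row and transcript were identical. Gjb2-201 did not pass among transcripts (limma adjusted p = 0.09), and Gjb5-201 did (limma adjusted p = 0.00306). Gjb6-201, the only Gjb6 transcript listed, was at 2.15, 4.19, 2.70 and 3.55 FPKM in PBS 1 to 4 and at 0.991, 0.979, 1.41 and 1.43 FPKM in BAC 1 to 4, with no overlap (log2 change -0.89, SE 0.19, limma adjusted p = 0.00784). It held between 45.9% (BAC 1) and 89.4% (BAC 3) of the Gjb6 gene row, the rest being in isoforms not listed.

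By summed transcripts, which are per length, the order of the members in PBS corneas was Gja1 at 93.9 ± 51.3 FPKM, Gjb2 at 41.0 ± 3.05, Gjb5 at 13.5 ± 1.74 and Gjb6 at 3.15 ± 0.906 FPKM (SD, n = 4). Gja1 and Gjb2 were not apart, since PBS 4 held less Gja1 (32.0 FPKM) than Gjb2. With BAC the order was the same, with Gja1 at 75.2 ± 26.2 FPKM, Gjb2 at 34.7 ± 3.75, Gjb5 at 7.82 ± 1.14 and Gjb6 at 1.20 ± 0.251 FPKM, and Gja1 and Gjb2 overlapped there too. On this measure, which leaves out the Gjb6 isoforms not listed, Gjb6 lay below Gja4, Gja5 and Gjc1 in each BAC library. In each PBS library Gjb6 stood above them. By gene row Gjb6 lay above Gja5 in BAC 4, at 1.42 against 1.34 FPKM.

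As a share of the summed connexin FPKM by gene row, Gja1 took 21.0% ± 9.55 with PBS and 20.5% ± 6.15 with BAC, and Gjb2 32.0% ± 5.14 and 32.0% ± 5.10 (SD, n = 4). The share of Gjb5 was 10.5% ± 1.46 with PBS and 7.19% ± 1.08 with BAC, and that of Gjb6 was 2.62% ± 0.838 and 1.24% ± 0.191. By summed transcripts Gja1 held 44.8% ± 15.5 with PBS and 43.2% ± 10.3 with BAC. Within the PBS group that share was 61.0% in PBS 1 and 23.7% in PBS 4.

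**Figure D3:**
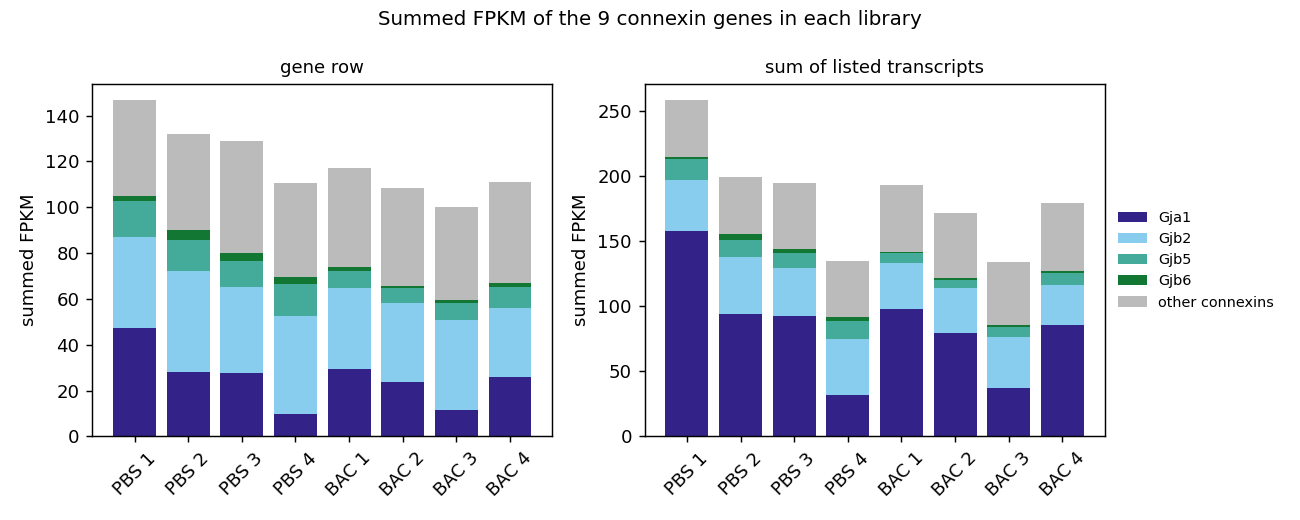
Summed FPKM of the 9 connexin genes in each library, from gene rows on the left and from summed transcripts on the right, with each member in its own colour and all other connexins in grey. Gja1 (dark blue) sets most of the difference in height between libraries of one group, and by summed transcripts its share runs from 23.7% in PBS 4 to 61.0% in PBS 1.

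Whether the members responded to different degrees was tested on the log2 ratio of FPKM + 1 between 2 members within each library, over 6 pairs. Gjb2 over Gjb6 was 3.30 ± 0.267 log2 with PBS and 3.92 ± 0.238 log2 with BAC (SD, n = 4), and the groups did not overlap. The difference of 0.62 log2 gave p = 0.0286 in a two-sided exact permutation test, the smallest that 70 assignments allow, and 0.171 after adjustment over the 6 pairs, so it failed the correction. Gjb2 over Gjb5 rose by 0.48 log2 (exact permutation p = 0.0857, adjusted 0.257). The other 4 pairs had exact permutation p-values of 0.343 to 1, and Gjb5 over Gjb6 differed by 0.14 log2. The added 1 shrinks ratios with the scarce Gjb6. With a pseudocount of 0.1, Gjb2 over Gjb6 differed by 0.97 log2 (exact permutation p = 0.0286, unadjusted). Gja1 over Gjb6 then differed by 1.00 log2 and Gjb5 over Gjb6 by 0.42 log2 (exact permutation p = 0.2 and 0.229). No pair of members passed, but 1 pair alone at the smallest p cannot pass this correction. The test therefore does not decide whether the members responded to different degrees.

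The genes whose profile over the 8 libraries came nearest to a member, among 10303 genes with a mean of at least 2 FPKM, were found by the root mean square difference of log2(FPKM + 1) after subtracting the PBS mean. For Gjb2 these were Zfp110, Nck1 and Dirc2, at 0.0517, 0.0667 and 0.0667 log2. For Gjb5 they were Macrod1, Cbr3 and Efna4, at 0.0639, 0.0759 and 0.0801 log2. For Gjb6 they were Fam160a1, Sipa1l3 and Cry2, at 0.119, 0.127 and 0.136 log2. No gene came close to Gja1, the nearest being Fam53b, Col4a4 and Pcmtd2 at 0.382, 0.383 and 0.385 log2.

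On chromosome 14, Gjb6 lies 18.6 kb from Gjb2 on the same strand, and the change was -0.86 log2 for Gjb6 and -0.24 log2 for Gjb2. On chromosome 4, Gjb5 lies 40.8 kb from Gja4, also on the minus strand. Gja4, which encodes the endothelial connexin Cx37, rose there from 1.14 ± 0.395 to 5.5 ± 0.439 FPKM (SD, n = 4 each; log2 change 1.62, SE 0.13, limma adjusted p = 4.49e-06). Cryl1, within 200 kb of Gjb2 and Gjb6, rose by 0.34 on the log2 scale (limma adjusted p = 0.00799), and Zmym2 near the same genes and Tbc1d32 near Gja1 did not pass.

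**Figure D4:**
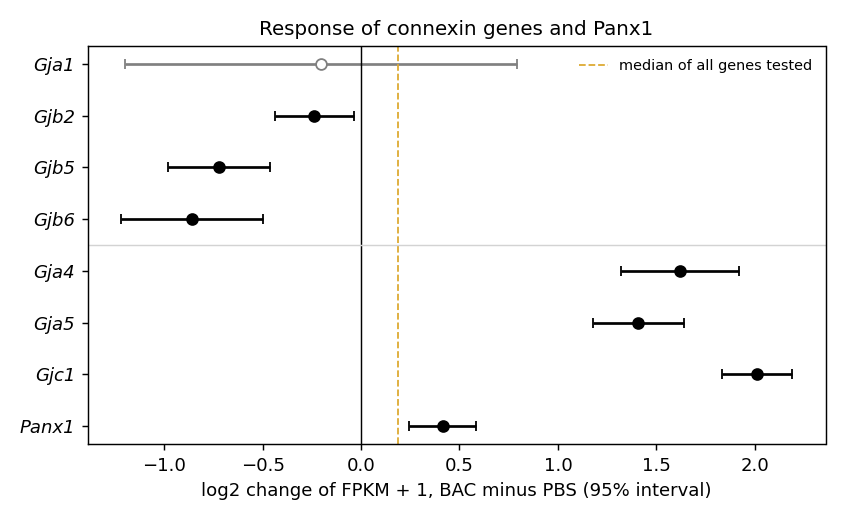
Log2 change of FPKM + 1, BAC minus PBS, with its 95% interval from limma for the 4 members (above the grey line) and for Gja4, Gja5, Gjc1 and Panx1; filled points passed an adjusted p of 0.05 and the dashed line is the median of all genes, 0.19. Gjb5 and Gjb6 lie at -0.72 and -0.86, Gja4, Gja5 and Gjc1 between 1.41 and 2.01, and Gja1 has the widest interval. Gja5 and Gjc1 were kept by the filter only through their BAC values, which fixed their direction.

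Gja5, which encodes Cx40 of arterial endothelium, was at 0, 0, 0.0342 and 0.079 FPKM in PBS 1 to 4 and at 2.19, 1.84, 1.61 and 1.34 FPKM in BAC 1 to 4 (log2 change 1.41, SE 0.10, limma adjusted p = 2.18e-06). Gjc1, which encodes Cx45 of vascular smooth muscle and heart, was at 0.104 to 0.322 FPKM with PBS and 3.66 to 4.06 FPKM with BAC (log2 change 2.01, SE 0.08, limma adjusted p = 6.14e-08). With PBS both lay under the filter, so they were kept only through their BAC values and their direction was fixed by that. Together Gja4, Gja5 and Gjc1 made 1.095% ± 0.463 of the summed connexin FPKM with PBS and 10.2% ± 0.765 with BAC (SD, n = 4). All 7 listed markers of vascular endothelium were higher with BAC, against 45.1% of all genes tested. These markers had a summed level of 6.42 to 14.3 FPKM with PBS and 113 to 148 FPKM with BAC. None of them was at 0 in a whole group. The part of these markers in the rise of these 3 connexins was not tested.

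Beside the lower Gjb5 and Gjb6, 10 of 12 listed markers of corneal epithelium were lower and 1 was higher. Among all genes tested 22.6% were lower and 45.1% higher. The summed level of the 12 markers was 25387 to 27338 FPKM with PBS and 2366 to 3129 FPKM with BAC. No marker of the list was at 0 in a whole group, Cdh1 did not pass (log2 change 0.07, limma adjusted p = 0.483) and the epithelial adhesion gene Epcam rose by 1.25. Of 7 stress markers of epithelium 5 were higher and 1 lower, and 2 were lower after median-of-ratios scaling, with a summed level of 2840 to 3278 FPKM with PBS and 5270 to 6782 FPKM with BAC; Sprr1b was at 0 in all PBS libraries and was kept only through its BAC values. In the corneal epithelium list 1 gene was kept only through its PBS values. The part of these markers in the falls was not tested.

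Of the remaining marker lists, all 5 conjunctival genes in the table were higher, at a summed 1009 to 1416 FPKM with PBS and 2676 to 3583 FPKM with BAC. The shares of all genes tested, for each list here, were 45.1% higher, 22.6% lower and 67.6% in either direction. Leukocyte markers were higher in 8 of 10 rows tested, at a summed 56.5 to 84.4 FPKM with PBS and 1096 to 1947 FPKM with BAC, and 4 of these 8 were kept by the filter only through their BAC values, which fixed their direction. Of 8 keratocyte markers 3 were higher and 3 lower. Of 6 Schwann cell markers 2 were higher and 1 lower, turning to none higher and 2 lower after quantile normalization, and Sox10 was kept only through its BAC values. None of the 4 melanocyte and 6 lens genes tested passed.

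Panx1, which forms a channel that releases ATP and does not make gap junctions, was at 2.01 to 2.50 FPKM with PBS and 3.20 to 3.55 FPKM with BAC, with no overlap. It rose by 0.42 on the log2 scale (SE 0.07, limma adjusted p = 0.000892), but by 0.02 after quantile normalization, where it did not pass.

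Of 23 partner genes for connexin binding, trafficking and degradation, 7 rose and 8 fell, while median-of-ratios scaling gave 5 and 9, with a median change of 0.07 log2 against 0.19 log2 over all genes. Over all genes tested 45.1% were higher and 22.6% lower, and 67.6% were called. Tjp1, which encodes ZO-1, the scaffold that binds the tail of Cx43, was at 54.9 ± 9.06 FPKM with PBS and 29.5 ± 2.19 FPKM with BAC (SD, n = 4 each) and fell by 0.86 on the log2 scale (limma adjusted p = 0.000178); it was chosen after its values were seen. Ctnna1, which encodes α-catenin of adherens junctions, fell by 0.56, and Src, a kinase that phosphorylates Cx43, by 0.58. Dbn1, whose product drebrin links Cx43 to actin, rose from 0.482 ± 0.322 to 6.47 ± 1.23 FPKM (log2 change 2.34); its PBS mean lay under the filter, which fixed its direction. Erp29, a chaperone of the endoplasmic reticulum, rose by 0.73.

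Hemichannels release ATP. A list of 23 genes held ectonucleotidases and receptors of the P2X, P2Y and adenosine families, not all of them receptors for ATP. Of the 14 measured, 10 rose and 3 fell, while quantile normalization gave 8 and 4. Over all genes tested 45.1% were higher and 22.6% lower. The median change of the list was 1.097 log2 against 0.19 log2 over all genes. P2ry6, a UDP receptor, rose from 0.391 ± 0.138 to 5.30 ± 0.266 FPKM (SD, n = 4 each; log2 change 2.18). Entpd3, an enzyme that degrades extracellular ATP, rose from 1.48 ± 0.131 to 9.06 ± 1.24 FPKM (log2 change 2.01). P2ry10, P2ry12 and P2ry13, receptors known from leukocytes, rose by 1.56, 1.58 and 1.51 on the log2 scale. With PBS these 3 and P2ry6 lay under 0.5 FPKM on average, so 4 of the 10 higher genes were kept by the filter only through their BAC values, which fixed their direction. P2ry2, an ATP receptor of corneal epithelium, fell from 12.8 ± 2.31 to 4.96 ± 0.863 FPKM (log2 change -1.21, limma adjusted p = 6.89e-05). The P2X receptor genes P2rx4 and P2rx7 rose by 0.94 and 0.54 on the log2 scale (limma adjusted p = 3.55e-05 and 0.00638). P2ry2, P2rx4 and P2rx7 were chosen after their values were seen. The leukocyte markers above moved with the rises of this list, and their part was not tested.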

How the data were processed

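RNA from whole mouse corneas was extracted with Trizol and sequenced from a stranded kit, per the labels' protocols. HISAT2 2.1.0, StringTie 1.3.3 and GRCm38 are listed, without a role, per the submitters' processing notes. The authors deposited FPKM per gene and per transcript. The authors' own comparison tables were not used. Read depth is unknown, so no counting intervals are given.

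Groups and replicate numbers came from sample titles. The test was limma 3.58.1 (R 4.3.3), two-sided, with a trended prior and a model holding only the group, applied to log2(FPKM + 1) of rows whose mean over the 8 samples reached 0.5 FPKM. Adjusted p-values (Benjamini-Hochberg) cover the 12967 genes or the 23349 transcripts. The test was also run on simulated tables with few changed rows and normal noise of the PBS spread in both groups. Such tables meet the assumptions of the test, so that run cannot show how well these data meet them. Ratios between members were compared with exact permutation tests (scipy 1.17.1, Python 3.11.15). Figures used matplotlib 3.10.9. Exon lengths came from GENCODE M21 and promoters from RefSeq, in which all 4 members matched. Protein features were planned and are not analysed here.

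The members and lists were chosen with earlier results of these data known. Named genes were the members, other connexins and pannexins in the table, up to 5 genes per functional list with the smallest adjusted p, the 3 genes nearest each member, and neighbours within 200 kb; some of these are not reported here. The alternatives were another pseudocount, other filters and scalings, other priors, array weights, a replicate block and each sample left out.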

Additional observations from a re-analysis of the deposited data

Results flagged for a closer look

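Among 22 groups of 4 libraries screened, over the connexin genes named here, Panx1 and the isoforms of Gja1 and Gjb6, 1 held a library whose gap to the nearest other was too large a part of the group's range under Dixon's test at 95%; chance flags about 1 group in 20. The isoform Gja1-206 in the BAC group had BAC 3 at 10.2 FPKM, against 0, 0 and 0.50 FPKM. BAC 3 also had the lowest Gja1 gene row of its group.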

How the results depend on the processing

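Gjb5 and Gjb6 kept their direction and their call under every alternative run, with log2 changes of -0.80 to -0.65 and -0.996 to -0.74 when 1 library was left out. Gja1 ran from -0.62 to 0.10 without 1 library and never passed. Gjb2 ran from -0.30 to -0.17 and passed in 2 of those 8 fits; rescaling to one total gave -0.22 (limma adjusted p = 0.051). Replicate numbers do not pair the samples by the labels, and deviations of same-numbered samples correlated at 0.0527 to 0.121, with 7 of 8 samples closest to their own number. With a replicate block Gjb2 was at -0.24 (limma adjusted p = 0.0807), and 5693 genes were higher and 2826 lower, against 5845 and 2926 without it. Median-of-ratios scaling gave 4431 higher and 4237 lower genes, and quantile normalization 3930 and 4990. Counts without 1 library ran from 8287 to 8541 genes and from 7081 to 7444 transcripts.

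Without 1 library the log2 ratio of Gja1 over Gjb2 differed by -0.40 to 0.38, Gja1 over Gjb5 by 0.09 to 0.80, Gja1 over Gjb6 by 0.22 to 1.09, Gjb2 over Gjb5 by 0.40 to 0.63, Gjb2 over Gjb6 by 0.54 to 0.74 and Gjb5 over Gjb6 by 0.01 to 0.35; with 3 libraries against 4 the smallest exact permutation p is 0.0571. Summed transcripts were added after seeing the data and gave 0.66 for Gjb2 over Gjb6 (exact permutation p = 0.0571). By summed transcripts the shares of connexin FPKM with BAC and PBS were 43.2% and 44.8% for Gja1, 21.1% and 22.1% for Gjb2, 4.70% and 7.20% for Gjb5 and 0.733% and 1.74% for Gjb6. By gene row and without 1 library they ran from 18.9% to 23.5% and 17.3% to 25.1% for Gja1, 29.6% to 33.6% and 29.8% to 33.7% for Gjb2, 6.76% to 7.52% and 9.88% to 11.04% for Gjb5 and 1.17% to 1.32% and 2.37% to 2.998% for Gjb6. Except where a value or the smaller number of samples shows it, the cause was not tested.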
